A study of Homo sapiens with 56 samples.

Results

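KCNF1, CADM1 and PAPSS2 are 3 genes whose transcripts were higher with estradiol in the ovarian cancer line PEO1 by more than in the line PEO4. They are represented by 7 probe sets of the 22215 in the table and by 3 of its 11963 genes: KCNF1 by 1 probe set, CADM1 by 3 and PAPSS2 by 3. The genes were selected on the difference between estradiol and vehicle cells and on the gap in that difference between the lines. All 7 probe sets that the array annotation gives to these symbols alone were then taken, whatever their own values. The estradiol response of the members is therefore described without a test. Tests of the members are given only for comparisons whose groups share no array with it, although the spread in these tests is taken from all arrays fitted. Genes of 3 pathway lists, which hold none of the members, are tested on the estradiol arrays.

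The measurements are 56 Affymetrix arrays of total RNA from the lines PEO1 and PEO4, both of which are established lines of high-grade serous ovarian cancer, with 28 arrays for each line in 7 groups of 4. All cells of both lines spent 3 days in phenol red-free IMEM with charcoal-stripped serum, which removes steroid hormones. A group of each line was taken at 0 h. The other groups were treated for 3 h with ethanol vehicle, with 1 nM estradiol (E2), with 1 µM fulvestrant (ICI), with ICI and E2 together, with 1 µM 4-hydroxytamoxifen (4OHT), or with 4OHT and E2 together. Each line is a single cell line, and the labels do not say whether the 4 arrays of a group came from separate cultures, so errors and p-values describe the spread between these arrays, which may be technical. All levels below are log2 expression values made by the authors with robust multi-array averaging, and a difference of 1 on this scale is a 2-fold change. The lines appear to have been normalized apart, so levels are compared within a line and only responses are compared between lines. In RNA from whole cultures, more RNA per cell and more cells that carry the transcript cannot be told apart.

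Estradiol binds estrogen receptor alpha, the product of ESR1, which then binds DNA at estrogen response elements or through other factors and raises or lowers transcription of its target genes within hours. Fulvestrant is a steroidal antagonist with a long side chain that also destabilises the receptor, whereas 4-hydroxytamoxifen is a triphenylethylene that blocks or partly mimics estradiol according to the gene and the cell. KCNF1 encodes a modifying subunit of voltage-gated potassium channels that forms no channel alone and alters the channels of other subunits. CADM1 encodes an immunoglobulin-type cell adhesion molecule known as a tumour suppressor in several carcinomas. PAPSS2 encodes an enzyme that makes PAPS, the sulfate donor used by sulfotransferases, including those that inactivate steroids.

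The tissue markers matched the labels. The 8 carcinoma markers examined (PAX8, WT1, MUC16, EPCAM, KRT7, KRT8, KRT18 and ESR1) lay at the 82.4 percentile of probe sets or above in the mean of each line, and group means of ESR1 lay between 11.19 and 11.94. The 10 immune, stromal, endothelial and hepatocyte markers measured here lay between the 0.1 and 61.6 percentiles, COL1A1 being the highest. The difference between 3' and 5' ACTB probe sets, a measure of RNA integrity, lay between -0.254 and 0.142 on all PEO1 arrays. It reached 3.41 on PEO4 ICI replicate 1 and 2.28 on PEO4 0 h replicate 4, and it lay between 0.680 and 1.02 in PEO4 E2 cells against 0.242 to 0.573 in PEO4 vehicle cells. The same ACTB difference lay between 0.482 and 1.74 in PEO4 cells with 4OHT and E2, against 0.471 to 0.654 with 4OHT alone. The part of RNA integrity in the PEO4 values was not tested.

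Of the 3 members, 1, KCNF1, was matched in the RefSeq promoter table used here, and its upstream sequence is shown with the motif matches found in it. It covers the 250 bases before the RefSeq start of the gene, chr2:10911684-10911933 on the plus strand of GRCh38.p14. Capitals mark a match to GGTCA, a single arm of the estrogen response element, read here on the opposite strand as TGACC, and a match to the cAMP response element TGACGTCA.
KCNF1: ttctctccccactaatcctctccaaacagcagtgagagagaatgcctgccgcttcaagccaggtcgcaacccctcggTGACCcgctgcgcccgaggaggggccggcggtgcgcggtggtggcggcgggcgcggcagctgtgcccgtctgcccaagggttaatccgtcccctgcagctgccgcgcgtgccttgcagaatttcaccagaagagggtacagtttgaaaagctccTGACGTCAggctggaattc

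The arm match began 173 bases and the cAMP element 19 bases before the gene start. Both strands of the 300-base RefSeq window, from 250 bases before to 50 after the start, were searched. Among 35116 such windows, 37.4% held GGTCA, 1.85% held TGACGTCA and 0.057% held the full palindrome GGTCANNNTGACC, which overlaps GGTCA by construction. The KCNF1 window held no match to the full palindrome, to the AP-1 site TGANTCA (7.71% of windows) or to the SP1 site GGGCGG (45% of windows). A match is a string of letters and shows no binding, and the absence of a match concerns these letters in this window only. CADM1 and PAPSS2 are named without a sequence.

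KCNF1 was the member with the most varied levels across PEO1 treatments. On its probe set 210263_at, the 4 PEO1 vehicle arrays read 7.94, 7.86, 7.81 and 7.85, and the PEO1 E2 arrays 8.78, 8.87, 8.93 and 8.94. The lowest E2 array stood above every array of the other 6 PEO1 groups. The E2 difference from vehicle was 1.01 ± 0.06 (SE, n = 4 arrays each), a 2.02-fold higher level and the 7th largest difference of 22215 probe sets in PEO1. In PEO4 the vehicle arrays read 7.02, 7.0, 7.11 and 7.20 and the E2 arrays 7.41, 7.38, 7.20 and 7.14. The PEO4 ranges overlapped, and the E2 difference was 0.20 ± 0.08. With vehicle, the KCNF1 probe set lay at the 38.3 percentile of probe sets in PEO4 and at the 55.9 percentile in PEO1. The part of this low signal in the small PEO4 difference was not tested. The PEO4 response was 0.82 ± 0.10 lower than the PEO1 response, a difference on the log2 scale.

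CADM1 had E2 arrays above vehicle arrays in both lines. On probe set 209031_at, which has the highest mean of its 3, the PEO1 vehicle arrays read 9.69, 9.68, 9.82 and 9.70 and the PEO1 E2 arrays 10.75, 10.72, 10.71 and 10.71. All 4 E2 arrays stood above all 24 other PEO1 arrays. The E2 difference in PEO1 was 1.00 ± 0.05 on 209031_at, 1.00 ± 0.05 on 209030_s_at and 1.17 ± 0.06 on 209032_s_at, so the 3 probe sets gave differences of similar size. In PEO4 the 209031_at arrays read 9.46, 9.47, 9.49 and 9.40 with vehicle and 9.68, 9.79, 9.67 and 9.86 with E2. Here too the ranges did not overlap, with differences of 0.30 ± 0.06, 0.26 ± 0.05 and 0.42 ± 0.08 on the 3 probe sets in the same order. Its PEO4 response was lower than its PEO1 response by between 0.70 ± 0.07 and 0.75 ± 0.07.

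PAPSS2 had a smaller E2 difference in PEO1 and wider replicates. On 203060_s_at, the probe set with the highest mean, the PEO1 vehicle arrays read 7.17, 7.13, 7.25 and 7.13 and the E2 arrays 7.83, 8.20, 7.91 and 7.75. These groups did not overlap, with E2 replicate B the highest array, and the difference was 0.75 ± 0.09. In PEO4 the vehicle arrays read 8.0, 7.98, 7.84 and 7.80 and the E2 arrays 7.78, 7.78, 8.01 and 7.86, which overlapped throughout. The PEO4 difference was -0.05 ± 0.10, with a 95% interval of -0.26 to 0.16, and the PEO4 response was 0.80 ± 0.14 lower than the PEO1 response. By the probe set of highest mean, PAPSS2 was thus the member for which the PEO4 mean with E2 was not above that with vehicle. On its probe set 203058_s_at the PEO4 difference was 0.08 ± 0.10.

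**Figure D1:**
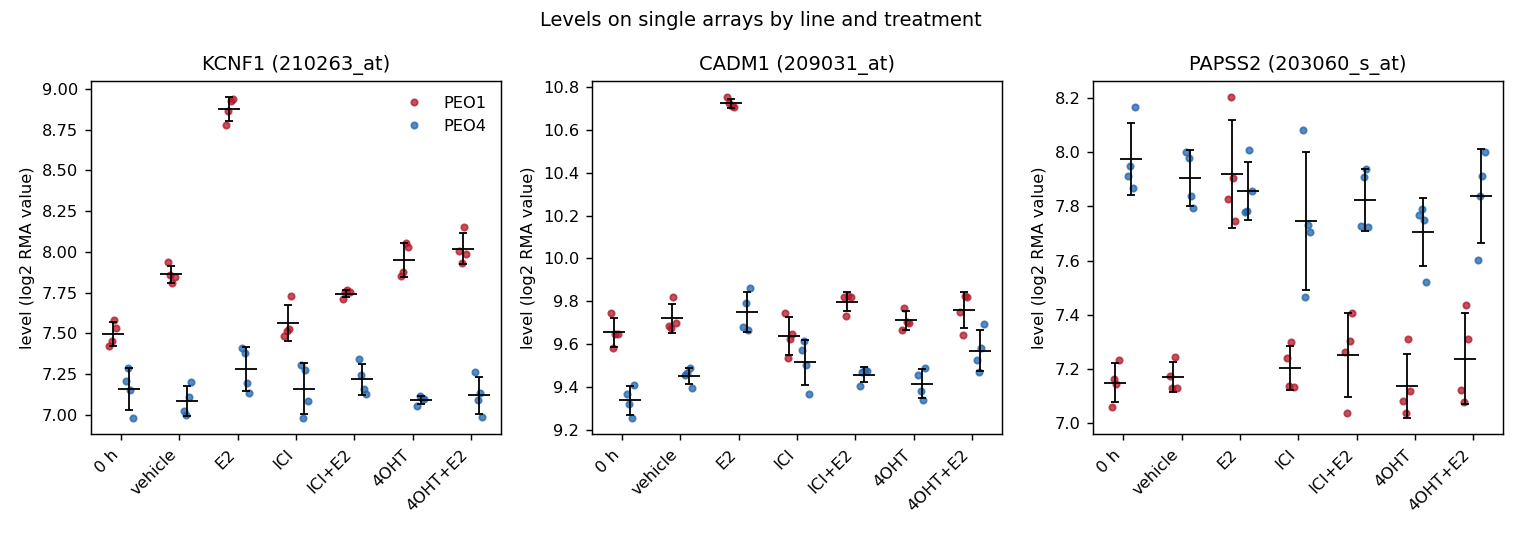
Log2 level on each array (points) with the mean and SD of the 4 arrays (lines) for KCNF1, CADM1 and PAPSS2, by treatment (x axis), in PEO1 (red) and PEO4 (blue). The E2 group stands apart in PEO1 for all 3 genes, at a mean of 8.88 for KCNF1, 10.72 for CADM1 and 7.92 for PAPSS2; heights are not to be compared between lines.

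The probe sets of PAPSS2 disagreed in size. In PEO1 the E2 difference was 0.75 ± 0.09 on 203060_s_at and 0.51 ± 0.10 on 203058_s_at, but 0.18 ± 0.07 on 203059_s_at, where E2 arrays read 6.87 to 7.09 and vehicle arrays 6.72 to 6.85. In PEO4 the latter probe sets gave 0.08 ± 0.10 (203058_s_at) and -0.09 ± 0.08 (203059_s_at). They were also dimmer. With vehicle, 203058_s_at lay at the 35.9 percentile of probe sets in PEO1 and 33.6 in PEO4, and 203059_s_at at 40.3 and 37.0. The percentiles of 203060_s_at were 45.7 and 50.3. The part of signal level in the disagreement was not tested. Across the 28 PEO1 arrays, the level of 203060_s_at had a Pearson correlation of 0.830 with 203058_s_at and of 0.479 with 203059_s_at, given as a description of arrays that share their treatments. For CADM1 the same correlations of 209031_at were 0.983 and 0.984 in PEO1, and 0.598 and 0.586 in PEO4. The response was lower in PEO4 than in PEO1 on all 7 probe sets, by between 0.27 and 0.82, a direction on which the genes had been selected.

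All E2 arrays lay above all vehicle arrays on 7 of 7 probe sets in PEO1, as on 4.29% of all probe sets, and on 3 of 7 in PEO4, all of CADM1, as on 3.99% of all. Over all genes with 1 probe set each, limma's moderated test called 1.35% higher and 0.426% lower with E2 in PEO1, and 1.45% higher and 0.368% lower in PEO4, where called means a p under 0.05 after Benjamini-Hochberg adjustment across the 22215 probe sets. Between the lines, the E2 response differed for 0.435% of genes. Nothing is read from these shares for the members, since the same arrays selected them.

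**Figure D2:**
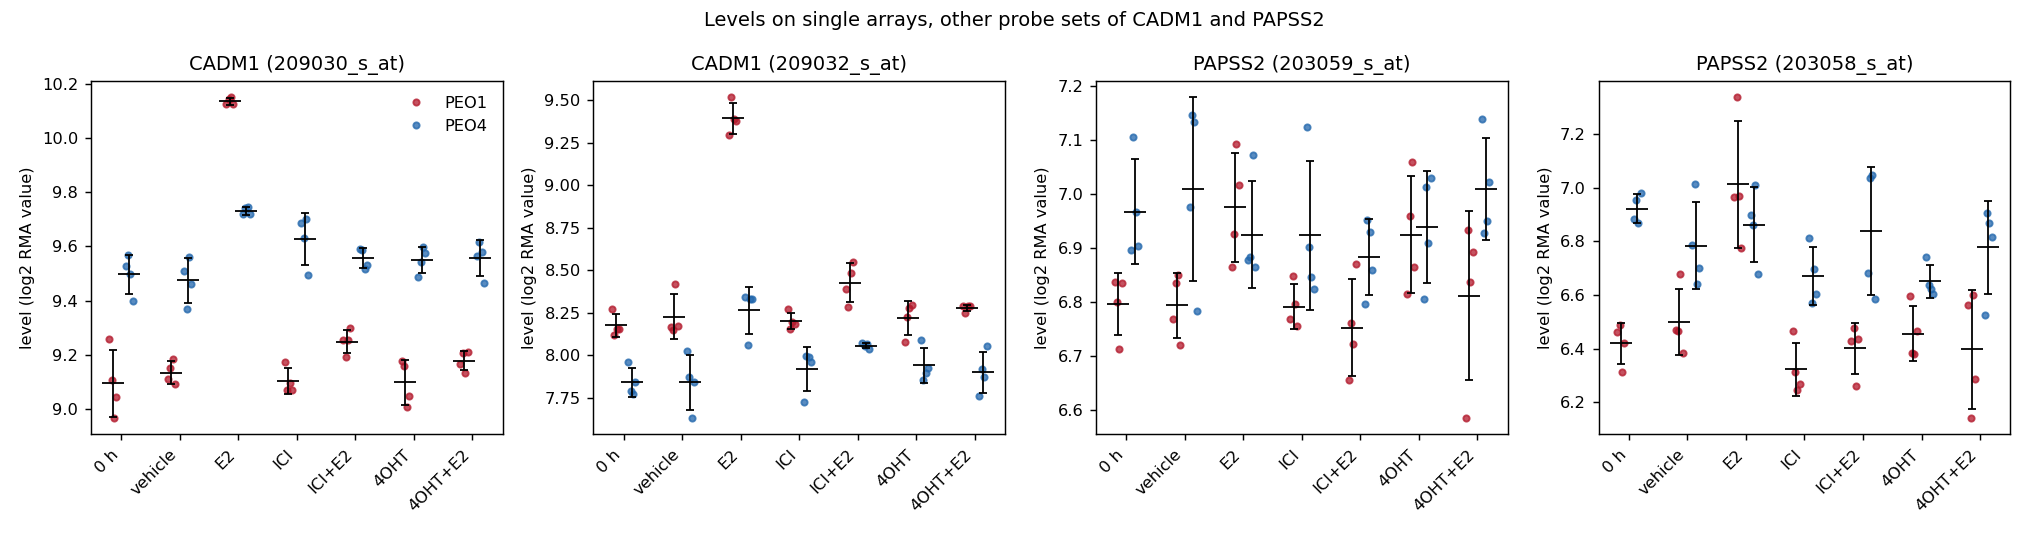
Log2 level on each array (points) with mean and SD (lines) for the other 2 probe sets of CADM1 and the other 2 of PAPSS2, by treatment, in PEO1 (red) and PEO4 (blue). Both CADM1 probe sets place the 4 PEO1 E2 arrays above all others of that line, whereas on 203059_s_at the PEO1 E2 arrays (6.87 to 7.09) overlap those with 4OHT (6.82 to 7.06).

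The order of the group means set KCNF1 apart within PEO1. From the highest to the lowest, KCNF1 means were 8.88 ± 0.07 (SD, n = 4) with E2, 8.02 ± 0.09 with 4OHT and E2, 7.95 ± 0.10 with 4OHT, 7.86 ± 0.05 with vehicle, 7.75 ± 0.02 with ICI and E2, 7.56 ± 0.11 with ICI and 7.50 ± 0.07 at 0 h. Neighbours in this order had separate ranges only between E2 and 4OHT with E2, and between vehicle and ICI with E2. The 6 groups other than E2 spanned 0.52 for KCNF1, against 0.16 for CADM1 (9.64 to 9.80) and 0.12 for PAPSS2 (7.14 to 7.25). For these genes E2 alone stood apart from its neighbour, and the other 6 groups formed a chain of overlapping ranges. In PEO4 each neighbour overlapped the next for all 3 genes, the 7 means of KCNF1 lying between 7.08 and 7.28, those of CADM1 between 9.34 and 9.75 and those of PAPSS2 between 7.71 and 7.97. For KCNF1 in PEO4 the highest mean was that of E2 (7.28 ± 0.14) and the lowest that of vehicle (7.08 ± 0.09). For PAPSS2 in PEO4 the highest mean was at 0 h.

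The comparisons of vehicle or E2 arrays with the remaining groups are also given without a test, since they contain arrays that selected the genes. In PEO1, KCNF1 was 0.37 ± 0.06 higher with vehicle at 3 h than at 0 h (7.42, 7.45, 7.58 and 7.53), with separate ranges. It was 0.30 ± 0.06 lower with ICI (7.48, 7.51, 7.53 and 7.73) than with vehicle, again with separate ranges, and 0.09 ± 0.06 higher with 4OHT, where the ranges overlapped. For CADM1 (209031_at) these 3 differences were 0.07 ± 0.05, -0.08 ± 0.05 and -0.01 ± 0.05, and for PAPSS2 (203060_s_at) 0.02 ± 0.09, 0.03 ± 0.09 and -0.03 ± 0.09. The ranges of CADM1 and PAPSS2 overlapped in all of these comparisons.

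With an antagonist added to E2, the PEO1 levels of the members lay near those without E2. In PEO1, KCNF1 was lower than with E2 alone by 1.13 ± 0.06 when ICI was added and by 0.86 ± 0.06 when 4OHT was added. CADM1 was lower by 0.92 ± 0.05 and 0.96 ± 0.05, and PAPSS2 by 0.67 ± 0.09 and 0.68 ± 0.09. On 6 of 7 probe sets the arrays with either antagonist lay wholly below the E2 arrays, the exception being PAPSS2 203059_s_at. Over all probe sets this held for 4.06% with ICI and 8.40% with 4OHT, and nothing is read from these shares, since the E2 arrays selected the genes. In PEO4 these differences were smaller for CADM1, at -0.29 ± 0.06 with ICI and -0.18 ± 0.06 with 4OHT. They were -0.06 ± 0.08 and -0.16 ± 0.08 for KCNF1 and -0.03 ± 0.10 and -0.02 ± 0.10 for PAPSS2.

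The E2 response with an antagonist present was tested between groups that took no part in the selection. The spread was taken from all 28 arrays of the line, so the E2 and vehicle arrays entered the errors and p-values. With ICI in PEO1, KCNF1 arrays read 7.48, 7.51, 7.53 and 7.73 without E2 and 7.71, 7.76, 7.76 and 7.75 with it, ranges that overlapped only through ICI replicate D. The difference was 0.18 ± 0.06 (95% interval 0.06 to 0.30) and did not pass limma's test (adjusted p = 1.00 over 22215 probe sets, unadjusted p = 0.00424 in limma). CADM1 differences were 0.16 ± 0.05, 0.15 ± 0.05 and 0.22 ± 0.06 on its 3 probe sets, and on the latter pair, 209030_s_at and 209032_s_at, the 4 arrays with E2 lay above the 4 without, as on 1.88% of all probe sets. PAPSS2 differences lay between -0.04 and 0.08. None of the 7 probe sets was called, nor was any other probe set, a background of 0%. By limma's unadjusted p under 0.05, 4 of the 7 and 722 of all 22215 probe sets passed. In PEO4 the same comparison gave 0.06 ± 0.08 for KCNF1 (limma adjusted p = 0.745), -0.06 ± 0.06 for CADM1 (0.647) and 0.08 ± 0.10 for PAPSS2 (0.725). The background was again 0%, with 2949 probe sets under an unadjusted p of 0.05 and 0 of the 7 members. The other CADM1 probe sets gave -0.07 ± 0.05 (209030_s_at) and 0.14 ± 0.08 (209032_s_at) in PEO4. On 209032_s_at the arrays with E2 (8.04 to 8.07) lay above those without (7.73 to 7.99).

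With 4OHT present, adding E2 changed no member by the test in either line. In PEO1, KCNF1 read 7.85, 7.88, 8.05 and 8.03 with 4OHT and 8.01, 7.93, 8.15 and 7.99 with 4OHT and E2, and the difference was 0.07 ± 0.06 (95% interval -0.05 to 0.19). The differences were 0.05 ± 0.05 for CADM1 and 0.10 ± 0.09 for PAPSS2, with limma adjusted p-values of 0.820, 0.851 and 0.824 in the order KCNF1, CADM1, PAPSS2. The upper limits of these 3 intervals were 0.19, 0.15 and 0.28. No probe set was called in this comparison, a background of 0% (1663 under an unadjusted p of 0.05). In PEO4, CADM1 on 209031_at differed by 0.15 ± 0.06, with a 95% interval of 0.03 to 0.27 (adjusted p = 0.593 and unadjusted p = 0.0137 in limma). Its other probe sets gave 0.01 ± 0.05 and -0.04 ± 0.08. KCNF1 differed by 0.03 ± 0.08 and PAPSS2 by 0.13 ± 0.10, and 0 of 7 probe sets were called against a background of 0.0675%.

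**Figure D3:**
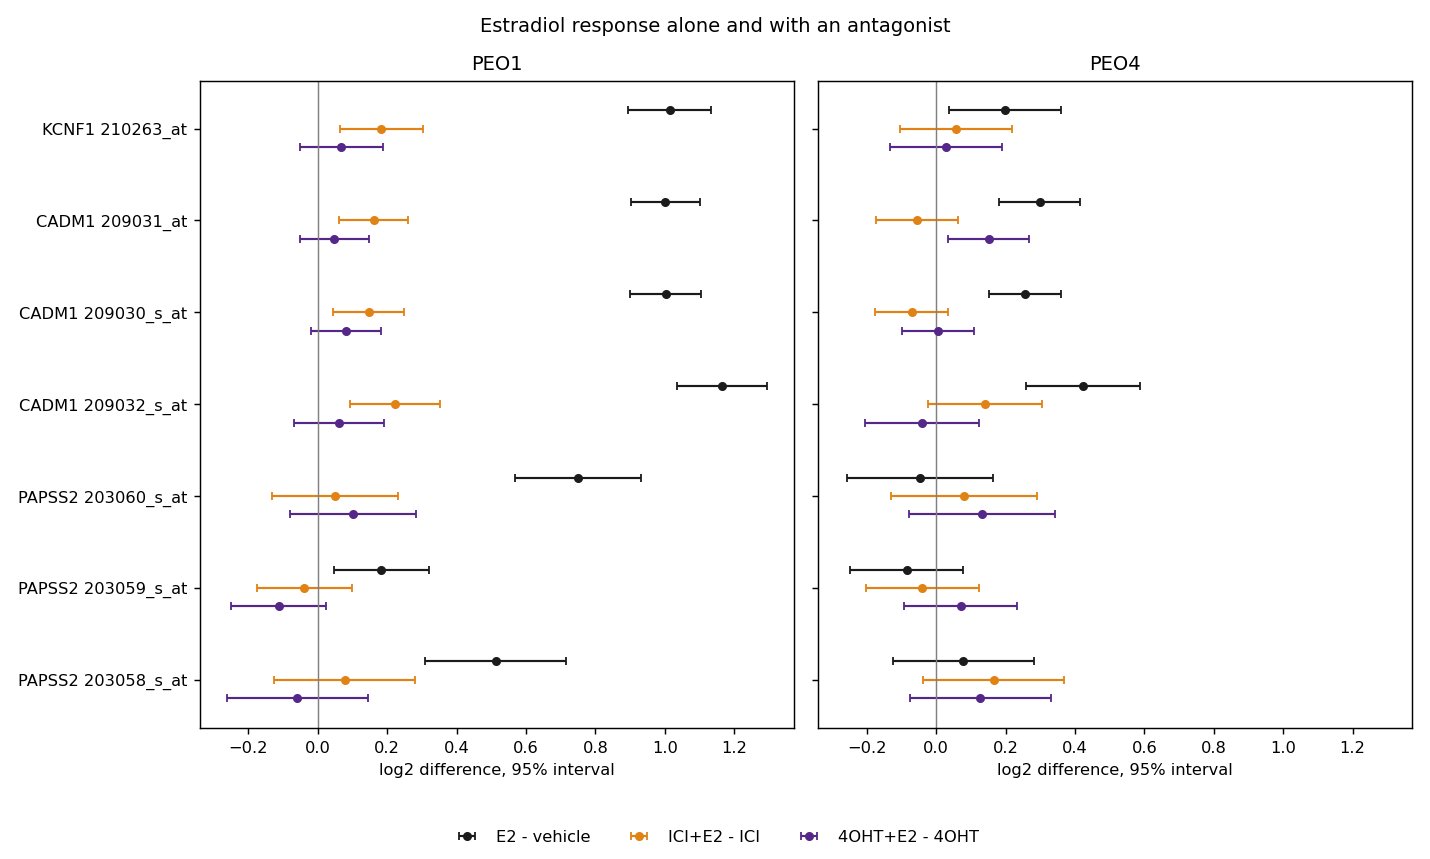
Log2 difference made by E2, with its 95% interval, on the 7 probe sets in PEO1 (left) and PEO4 (right): against vehicle (black, the comparison that selected the genes), with ICI present (orange) and with 4OHT present (purple). The PEO1 differences with an antagonist lie between -0.11 and 0.22 and those of E2 alone between 0.18 and 1.17, and on each of the 7 probe sets the difference with E2 alone is the largest.

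The gap between the lines was tested between the same groups, with the spread taken from all 56 arrays. The PEO4 response to E2 with ICI present was lower than that of PEO1 by 0.13 ± 0.10 for KCNF1 and 0.22 ± 0.07 for CADM1, and it was 0.03 ± 0.14 higher for PAPSS2. With 4OHT present the differences between the lines were -0.04 ± 0.10, 0.10 ± 0.07 and 0.03 ± 0.14. No member was called in either comparison, the smallest limma adjusted p-values over the 7 probe sets being 0.587 and 0.896. The background was 0% in both, with 1875 and 1246 probe sets under an unadjusted p of 0.05 by limma, among them 2 and 0 of the 7 members. The larger PEO1 response seen with E2 alone was thus not called with an antagonist present. With ICI the 95% interval ran from -0.32 to 0.07 for KCNF1. For CADM1 it lay below 0 on 209031_at (-0.36 to -0.07) and 209030_s_at (-0.36 to -0.08), but not on 209032_s_at (-0.29 to 0.12).

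The antagonists differed from each other at the same dose for KCNF1 in PEO1. KCNF1 read 7.85, 7.88, 8.05 and 8.03 with 4OHT and 7.48, 7.51, 7.53 and 7.73 with ICI, and each 4OHT array stood above each ICI array. The difference was 0.39 ± 0.06 (95% interval 0.27 to 0.51), a 1.31-fold higher level with 4OHT (limma adjusted p = 1.88e-04). With E2 present as well, KCNF1 read 8.01, 7.93, 8.15 and 7.99 with 4OHT against 7.71, 7.76, 7.76 and 7.75 with ICI, without overlap. That difference was 0.28 ± 0.06 (limma adjusted p = 0.00854), but the adjusted p was 0.0816 when the spread was taken from these groups alone, the highest over 15 alternatives (0.00359 to 0.0816). KCNF1 was 1 of 7 probe sets called in each comparison, against backgrounds of 2.39% without and 2.71% with E2.

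CADM1 and PAPSS2 did not pass the test between the antagonists. In PEO1 without E2, 4OHT minus ICI was 0.07 ± 0.05 for CADM1 (95% interval -0.03 to 0.17, limma adjusted p = 0.470) and -0.07 ± 0.09 for PAPSS2 (-0.25 to 0.11, 0.754). With E2 present it was -0.04 ± 0.05 for CADM1 (-0.14 to 0.06, limma adjusted p = 0.672) and -0.02 ± 0.09 for PAPSS2 (-0.20 to 0.17, 0.940). The other CADM1 probe sets then gave -0.07 ± 0.05 (209030_s_at) and -0.15 ± 0.06 (209032_s_at). On 209032_s_at the 95% interval of -0.28 to -0.02 lay below 0 (limma adjusted p = 0.195). In PEO4, 0 of 7 probe sets were called without E2 against a background of 1.56%, and 0 of 7 with E2 against 3.21%. The PEO4 differences without and with E2 were -0.07 ± 0.08 and -0.10 ± 0.08 for KCNF1. They were -0.10 ± 0.06 and 0.11 ± 0.06 for CADM1 and -0.04 ± 0.10 and 0.01 ± 0.10 for PAPSS2. The PEO4 KCNF1 arrays lay between 6.98 and 7.31 with ICI and between 7.06 and 7.11 with 4OHT, so the 4OHT range fell inside that of ICI. The PEO4 ICI group contains the array with the ACTB difference of 3.41, and its KCNF1 level was 7.31, the highest of its group.

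The antagonists were also set against the 0 h cells. In PEO1, KCNF1 was higher with 4OHT than at 0 h by 0.46 ± 0.06 (95% interval 0.34 to 0.58), a 1.37-fold difference (limma adjusted p = 5.31e-06) with no overlap of arrays. It differed by 0.07 ± 0.06 between ICI and 0 h (95% interval -0.05 to 0.19, limma adjusted p = 0.614). These comparisons combine the drug with 3 h in ethanol, and vehicle cells themselves were 0.37 higher than at 0 h, as given above. CADM1 (209031_at) and PAPSS2 (203060_s_at) differed from 0 h by between -0.02 and 0.06 with either antagonist in PEO1. KCNF1 was 1 of 7 probe sets called with 4OHT, against a background of 7.05%, and 0 of 7 were called with ICI against 5.07%.

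In PEO4 no member was called against 0 h, where the background was 6.17% for ICI and 13.8% for 4OHT. KCNF1 differed by 0.00 ± 0.08 with ICI and -0.07 ± 0.08 with 4OHT. CADM1 read 9.37, 9.32, 9.26 and 9.41 at 0 h and 9.57, 9.61, 9.51 and 9.37 with ICI. That difference was 0.18 ± 0.06 (limma adjusted p = 0.0693), and it passed when ICI replicate 4 or 0 h replicate 4 was left out (adjusted p = 0.0137 and 0.0459 in limma, in a range of 0.00940 to 0.379 over 16 alternatives). PAPSS2 read 7.91, 7.95, 7.87 and 8.17 at 0 h and 7.77, 7.79, 7.75 and 7.52 with 4OHT, which lay wholly below. By limma's unadjusted p under 0.05, 5795 of 22215 probe sets passed in that PEO4 comparison of 4OHT with 0 h. Separate ranges were not counted over all probe sets there. The difference was -0.27 ± 0.10 and did not pass (limma adjusted p = 0.0847). With ICI, the PAPSS2 difference from 0 h was -0.23 ± 0.10 (limma adjusted p = 0.223). Without ICI replicate 1, the array with the high ACTB difference, the limma adjusted p was 0.0278, the lowest of a range up to 0.555.

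Whether the KCNF1 antagonist differences were smaller in PEO4 than in PEO1 was tested after their values had been seen. The 4OHT minus ICI difference was 0.46 ± 0.10 lower in PEO4 (95% interval -0.66 to -0.26, limma adjusted p = 0.0242, background 0.329%). That call rests on single arrays: the adjusted p in limma rose to between 0.0549 and 0.0641 without PEO1 ICI replicate A, PEO1 4OHT replicate C, PEO4 ICI replicate 1 or PEO4 4OHT replicate 1, and to 0.235 with the compared groups alone, the highest of 24 alternatives whose lowest was 4.35e-05. With E2 present the gap was -0.37 ± 0.10 and did not pass (limma adjusted p = 0.0592, background 0.594%). It passed under 7 of 24 alternatives, with the replicate label as a block among them (limma adjusted p = 0.0352, in a range of 0.0225 to 0.162 over the alternatives). The 4OHT difference from 0 h was 0.52 ± 0.10 lower in PEO4 (limma adjusted p = 3.52e-04, background 4.28%) and passed under all 24 alternatives. Beside it, vehicle minus 0 h, with no 4OHT, was 0.37 ± 0.06 in PEO1 and -0.07 ± 0.08 in PEO4, and 4OHT minus vehicle was 0.09 ± 0.06 in PEO1 and 0.01 ± 0.08 in PEO4.

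**Figure D4:**
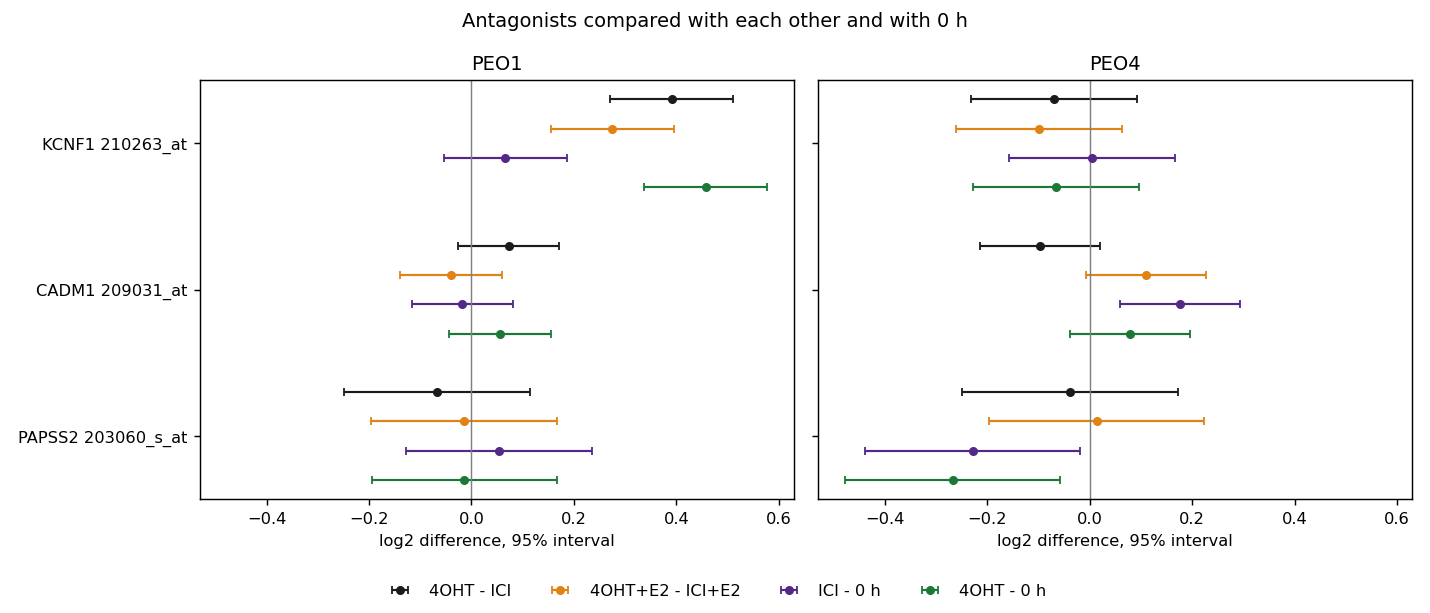
Log2 difference with 95% interval between the antagonists, without E2 (black) and with E2 (orange), and of ICI (purple) and 4OHT (green) from 0 h, for the 3 genes in PEO1 (left) and PEO4 (right). In PEO1 the KCNF1 intervals of 4OHT against ICI (0.27 to 0.51) and against 0 h (0.34 to 0.58) lie above 0, whereas those of CADM1 and PAPSS2 cover 0.

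Genes related to the members by function were tested for E2 against vehicle and read against the shares of all genes called, 1.35% higher and 0.426% lower in PEO1 and 1.45% and 0.368% in PEO4. Of 46 genes of sulfate uptake, PAPS synthesis and sulfation, 37 were measured. CHST10, a sulfotransferase of cell surface glycans, rose with E2 in PEO1 by 0.34 ± 0.05 (limma adjusted p = 4.50e-05) and in PEO4 by 0.31 ± 0.06 (0.00149). TPST2, which sulfates protein tyrosines, rose in PEO4 by 0.34 ± 0.08 (limma adjusted p = 0.0208). That call was lost, with a limma adjusted p of 0.0582 to 0.107, without vehicle replicate 1, 2 or 4 or E2 replicate 1 or 2. These were the only calls in this list, 1 of 37 in PEO1 and 2 of 37 in PEO4, with list medians of -0.04 and 0.01 against -0.01 and 0.00 over all genes. PAPSS1, the other PAPS synthase, differed by 0.03 ± 0.04 in PEO1 and -0.04 ± 0.05 in PEO4 and was not called. SULT1E1, the estrogen sulfotransferase, differed by -0.26 ± 0.10 and -0.34 ± 0.14 (limma adjusted p = 0.275 and 0.414).

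Of 39 voltage-gated potassium channel subunits 30 were measured, and 0 were called in either line. Their medians were -0.05 in PEO1 and 0.04 in PEO4. KCNS3, another modifying subunit, differed by -0.10 ± 0.05 and -0.04 ± 0.05. Of 27 genes of CADM and nectin adhesion and their partners 25 were measured, with 0 called in PEO1 and 1 in PEO4. That gene was PVR, a nectin-like receptor, which rose by 0.33 ± 0.08 in PEO4 (limma adjusted p = 0.0205) and differed by 0.12 ± 0.05 in PEO1 (0.361). The PEO4 call of PVR was lost, with a limma adjusted p of 0.0748 to 0.0964, without vehicle replicate 1 or 2 or E2 replicate 1 or 2. Both lists are read against the same shares of all genes as sulfation, 1.35% higher in PEO1 and 1.45% in PEO4. No gene of the 3 lists was called for a difference between the lines in its E2 response, where 0.435% of all genes were, and the list medians of that difference were 0.07, 0.11 and -0.02 for sulfation, potassium channels and adhesion, against 0.01 over all genes. The members themselves are not in these lists' counts.

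The genes whose pattern was most like that of each member were found over 14 group means, each centred on the mean of its line, among 699 genes whose means spanned 0.5 or more in a line. These points share the E2 groups on which the members were selected, so the correlations are a description. For KCNF1 the closest were AGT (Pearson r = 0.948), the precursor of angiotensin, then NPY5R (0.929), a neuropeptide Y receptor, SCNN1B (0.923), a sodium channel subunit, BCL2L11 (0.919), the apoptosis regulator BIM, and CADM1 (0.907). For CADM1 they were ARHGAP26 (0.981), CA12 (0.957), a carbonic anhydrase, AGT (0.948), PLAT (0.940), tissue plasminogen activator, and TMEM120B (0.934). For PAPSS2 they were ARHGAP26 (0.920), NPY1R (0.916), another neuropeptide Y receptor, AGT (0.909), TMEM120B (0.895) and CADM1 (0.877). Among the members, r was 0.907 for KCNF1 with CADM1, 0.857 for KCNF1 with PAPSS2 and 0.877 for CADM1 with PAPSS2.

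AGT was near all 3 members, with E2 differences of 0.64 in PEO1 and 0.13 in PEO4. ARHGAP26 gave 1.08 and 0.24, close in both lines to the 1.00 and 0.30 of CADM1. NPY1R gave 0.65 in PEO1 and 0.00 in PEO4, beside the 0.75 and -0.05 of PAPSS2 (203060_s_at). CA12 (1.03 and 0.69) and PLAT (0.77 and 0.55) had larger E2 differences in PEO4 than CADM1.

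**Figure D5:**
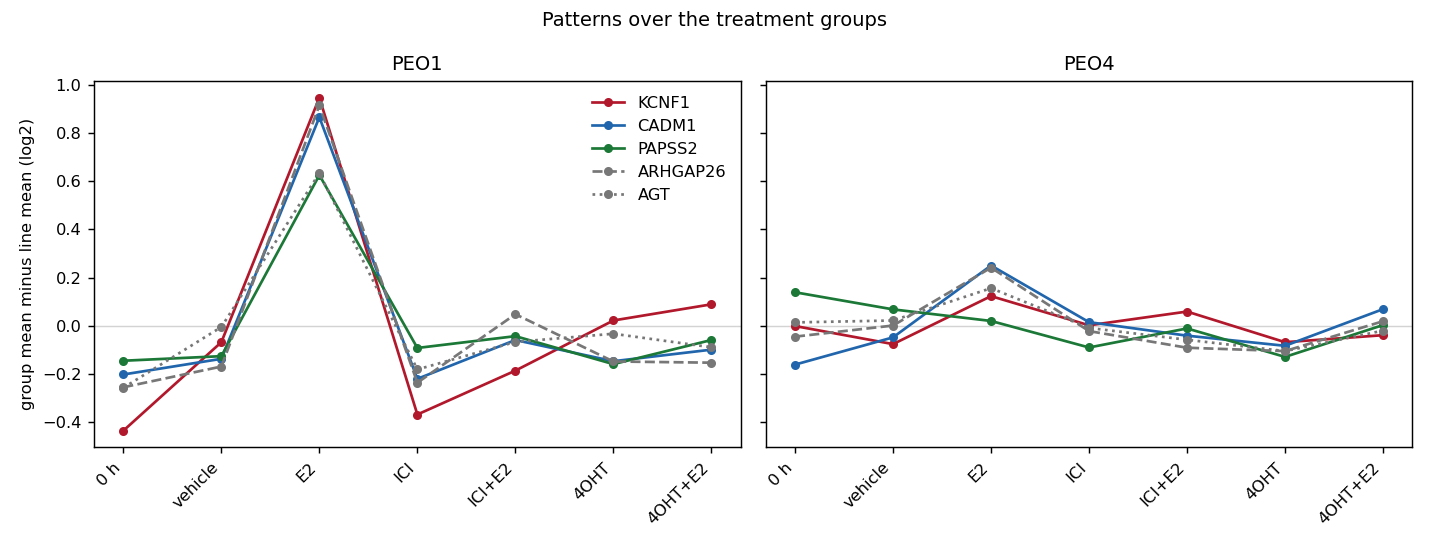
Group mean minus the mean of the line (log2) for KCNF1, CADM1, PAPSS2 and, in grey, the like genes ARHGAP26 and AGT, over the 7 treatments in PEO1 (left) and PEO4 (right); lines join treatments only to guide the eye. All 5 genes peak at E2 in PEO1, and KCNF1 alone lies above its line mean with 4OHT in PEO1.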

How the data were processed

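The members, the pathway lists and the comparisons were chosen with earlier results of these data known. The authors deposited log2 expression values for 22277 probe sets made by RMA, per the submitters' processing notes, with no version or genome build given in the sources used here. Raw scanner files were not used. After 62 control probe sets were set aside, 22215 were fitted. The array annotation gives 19064 of these 1 symbol, 1043 several and 2108 none. RMA values hold no background calls, and the number of arrays limits the precision. Replicate arrays correlated at 0.9886 or higher across probe sets, which are not independent replicates.

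In R 4.3.3, limma 3.58.1 was run for each line separately on its 28 arrays, with a mean for each group and 21 residual degrees of freedom. Responses were compared between the lines in 1 fit over 56 arrays. P-values were adjusted by the Benjamini-Hochberg method over all probe sets of a comparison and called under 0.05. For the lists and their background, calls were counted over 11963 genes by the probe set of highest mean. Errors beside differences are limma's standard errors. Contrasts holding vehicle or E2 arrays were given no p-value for the members. The share of all probe sets with separate ranges was counted for E2 against vehicle in both lines. In PEO1 it was also counted for ICI with E2 against E2 and against ICI, and for 4OHT with E2 against E2. Separate ranges in other comparisons are given without that share and describe the arrays only. The 3 differences between lines that involve the antagonists against each other or 4OHT against 0 h were added after values were seen. The scripts were tested on simulated data.

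A gene is represented by its probe set of highest mean level, and the others are given beside it. Named from each list were up to 4 called genes by smallest adjusted p, and PAPSS1, SULT1E1 and KCNS3 were chosen after their values were seen. Like genes were the 5 with the highest correlation. ARHGAP26 and AGT were chosen for the plot after their values were seen. Alternatives were 1 probe set per gene, leaving out the dimmest 40 percent, trend and robust variances, quantile normalization within a line, array weights, fits of the compared groups alone, the replicate label as a block, leaving out each array in turn and leaving out both outlying PEO4 arrays.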

Additional observations from a re-analysis of the deposited data

Results flagged for a closer look

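Among 98 groups of 4 arrays (7 probe sets in 14 groups), 9 held an array whose gap to the nearest other exceeded Dixon's 95% critical share of the range of its group, where chance gives about 1 in 20, or 4.9 groups. For CADM1 on 209031_at these were PEO1 vehicle replicate C at 9.821, above 9.678 to 9.698 in the others, PEO1 ICI with E2 replicate B at 9.732, below 9.818 to 9.827, and PEO4 ICI with E2 replicate 1 at 9.407, below 9.472 to 9.481. For CADM1 on 209032_s_at they were PEO1 vehicle replicate C at 8.422, above 8.151 to 8.174, and PEO1 4OHT with E2 replicate B at 8.249. The others of that 4OHT with E2 group all read 8.289, so a small gap sufficed. The remaining flags were PEO4 E2 replicate 2 at 8.060, below 8.329 to 8.344, and PEO4 ICI replicate 1 at 7.726, below 7.961 to 7.994. For PAPSS2 they were PEO4 4OHT replicate 4 at 7.520 on 203060_s_at, below 7.749 to 7.789, and PEO4 E2 replicate 3 at 7.073 on 203059_s_at, above 6.865 to 6.884. The PEO1 vehicle replicate C array stood apart on 2 of the 3 CADM1 probe sets, on the high side each time. No KCNF1 array was singled out in this way.

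For KCNF1, limma's test called 2 differences between the lines. The 4OHT minus ICI difference was -0.46 in PEO4 relative to PEO1 and the 4OHT minus 0 h difference was -0.52, both tested after the values of each line were seen. Against vehicle, 4OHT gave 0.09 ± 0.06 in PEO1 and 0.01 ± 0.08 in PEO4.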

How the results depend on the processing

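The precision is limited by 4 arrays per group. Members are counted here by probe set, so the 3 probe sets of CADM1 and the 3 of PAPSS2 count separately. Of the counts of members called, 284 stayed within 1.5 times the reported count and 22 moved. Of the counts of list genes, 49 stayed and 6 moved. KCNF1 in PEO1 passed under all 15 alternatives for 4OHT against ICI and against 0 h. Only the compared groups in the fit gave 0 members for 4OHT with E2 against ICI with E2 in PEO1 (KCNF1 0.275, adjusted p 0.0816), 1 for 4OHT against 0 h in PEO4, and 0 for the difference between the lines of 4OHT minus ICI (KCNF1 adjusted p 0.235). Array weights gave 1 member probe set for ICI with E2 against ICI in PEO4 and for its difference between the lines. They gave 1 for 4OHT against ICI in PEO4 and 3 for ICI against 0 h in PEO4. The latter were of CADM1 and PAPSS2, and KCNF1 was not called there. They raised all probe sets called for ICI with E2 against ICI in PEO4 from 0 to 1722. Without the dim probe sets, 1 member was called for ICI against 0 h in PEO4. The difference between the lines of 4OHT with E2 minus ICI with E2 gave 1 member, KCNF1 (limma adjusted p between 0.0248 and 0.0404), with 1 probe set per gene, without dim probe sets, with quantile normalization, with array weights, without both outlying PEO4 arrays, and with the replicate block. In the pathway lists with E2 in PEO4, 7 genes were called with array weights and 5 without both outlying PEO4 arrays, in place of 3. The cause of these changes was not tested.

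Whether replicate labels pair the arrays was not settled. Of 84 pairs of same-labelled arrays in each line, 24 in PEO1 and 36 in PEO4 had deviations correlated over 0.1. The medians were 0.010 and 0.076, against -0.000 and -0.010 for arrays with different labels, among which no count over 0.1 was made. With the replicate block the count of members called moved in 1 comparison, the difference between the lines named above, from 0 to 1 (KCNF1 -0.374, adjusted p 0.0352).

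Leaving out each array in turn gave 0 to 2 member probe sets for ICI against 0 h in PEO4. It gave 1 to 3 list genes with E2 in PEO4 (1 without vehicle replicate 1 or 2 or E2 replicate 1 or 2). It gave 0 to 1 member probe sets for the line differences of 4OHT minus ICI and of 4OHT with E2 minus ICI with E2. For the probe sets that represent the genes, the sign turned only where the value was near 0 and not called. Over the other probe sets, and over CADM1 and PAPSS2 in the differences between the lines added later, 103 alternatives turned the sign. Another 6 passed where the reported fit did not, and 1163 kept the result. The values that follow are for the probe sets that represent the genes. With quantile normalization CADM1 in PEO1 gave 0.005 for 4OHT with E2 against ICI with E2, and PAPSS2 in PEO4 -0.016. With array weights in PEO4, KCNF1 gave -0.026 for ICI with E2 against ICI, and PAPSS2 gave 0.024 for 4OHT against ICI and -0.014 for the antagonists with E2. Without both outlying arrays PAPSS2 gave 0.074 for 4OHT against ICI and KCNF1 -0.103 for ICI against 0 h. Over the arrays left out in turn in PEO1, PAPSS2 ranged from -0.002 to 0.120 (ICI with E2 against ICI), -0.086 to 0.038 (4OHT with E2 against ICI with E2) and -0.071 to 0.019 (4OHT against 0 h), and CADM1 from -0.053 to 0.017 (ICI against 0 h). In PEO4, KCNF1 ranged from -0.055 to 0.064 (ICI against 0 h), -0.004 to 0.105 (ICI with E2 against ICI) and -0.019 to 0.073 (4OHT with E2 against 4OHT), and PAPSS2 from -0.014 to 0.192 (ICI with E2 against ICI), -0.132 to 0.074 (4OHT against ICI) and -0.041 to 0.092 (the antagonists with E2). Between the lines, PAPSS2 ranged from -0.062 to 0.143 for E2 with ICI and -0.031 to 0.111 for E2 with 4OHT, and KCNF1 from -0.086 to 0.006 for E2 with 4OHT.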
